A study of Caenorhabditis elegans with 6 samples.

Results

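A run of 6 genes on chromosome V, droe-8, ZC196.2, B0507.6, B0507.7, ddn-1 and B0507.8, stood at 7.20 to 26.0 times the wild-type level in ddi-1(icb156) animals and lies on 36434 bases of the genome. These 6 of the 19999 genes with estimated counts were taken because they are neighbours whose transcripts were raised in this contrast, so their levels are given as a description and are not tested. The values that chose them are the counts of the same 6 libraries. The genes on either side were taken by position, yet the ends of the run were set on the same libraries. The genes that lie among the members are those left in the interval once the members had been chosen on these libraries.

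The libraries held RNA from whole Caenorhabditis elegans at the fourth larval stage (L4), raised from bleached embryos at 20°C on E. coli OP50. One group carried ddi-1(icb156), a non-synonymous allele recovered in a chemical mutagenesis screen for constitutive expression of a chil-27p::GFP reporter, and the other was labelled wild type, with 3 biological replicates each. The listed strain with this allele also carries icbIs4[chil-27p::GFP; col-12p::mCherry]. Neither the labels nor the methods state whether the wild-type animals carry this array. ddi-1 lies on chromosome IV and the array on chromosome II, apart from the run on V. Whether the mutagenised strain carries other variants near the run was not tested. Estimated counts summed to between 28962104 and 36258118 per mutant library, against 40554395 to 47142002 per wild-type library. The separate origin of the cultures is known only from the replicate labels, so errors given here describe these samples only. SDs are the spread between them, and SEs come from a fit that pools spread over all genes tested.

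DDI-1 is an aspartic protease that, with the N-glycanase PNG-1, processes the transcription factor SKN-1A. Processed SKN-1A keeps proteasome subunit genes expressed, and animals that lack this pathway tolerate proteasome blockade poorly. A pair of transcriptional programmes has been described around it, the oomycete recognition response (ORR), seen when animals sense oomycetes, and the intracellular pathogen response (IPR), seen on infection by microsporidia or the Orsay virus. The proteasome inhibitor bortezomib (BTZ) induces IPR genes as well. Many genes of the ORR and IPR have no assigned biochemical role. For that reason no function is given for the members of the run, of which droe-8 and ddn-1 have gene names and the other 4 only the sequence names of their cosmids.

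B0507.8 and droe-8 were also followed one by one in the study. Their quantitative PCR primers, and a pair of the 36 single-molecule in situ probes for B0507.8, are shown because they mark which stretches of these transcripts other assays read. Capitals in the B0507.8 oligonucleotides mark bases that a primer shares with a probe.
B0507.8_qPCR_Fwd: AAGCACAAAGAGaagcagcg
B0507.8 probe 11: CTCTTTGTGCTTcgtgaatt
B0507.8_qPCR_Rev: ttcagctctgccATTTTGCC
B0507.8 probe 16: ATTTTGCCgttaacttgtct
droe-8_qPCR_Fwd: ttcggaagtgcgcaaagaaa
droe-8_qPCR_Rev: ttttccatcgtttcctcggc
The forward primer and probe 11 share 12 bases as reverse complements, as a sense primer and an antisense probe do. The reverse primer and probe 16 share 8 bases on the same strand. All 36 probes are 20 bases long, with a GC content of 30 to 50% (median 40%).

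The run begins with droe-8 (WBGene00022550) at chromosome V 8726528 to 8728957 and ends with B0507.8 (WBGene00015225) at 8760622 to 8762961, in WBcel235 coordinates of the Ensembl annotation. ZC196.2 (WBGene00022546, 8739436 to 8742311) and B0507.6 (WBGene00015223, 8746158 to 8750197) follow droe-8, and these 3 genes are on the plus strand. B0507.7 (WBGene00015224, 8757312 to 8758718), ddn-1 (WBGene00015227, 8758820 to 8760516) and B0507.8 are on the minus strand. They are packed closely in this annotation, with 101 bases between B0507.7 and ddn-1 and 105 bases between ddn-1 and B0507.8. The members on the plus strand are spaced more widely, and 3846 bases separate ZC196.2 and B0507.6. Another 5 genes with counts, all on the plus strand, lie among the members.

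ddn-1 was the most abundant member. Its CPM, that is counts scaled to library size, were 113, 128 and 168 in the 3 ddi-1(icb156) libraries, against 5.36, 4.71 and 5.67 CPM in the 3 wild-type libraries. The groups were widely separated, with mutant replicate 3 the highest of all. The mean was 136 ± 28.9 CPM in the mutants and 5.25 ± 0.490 CPM in wild type (SD, n = 3 each), which is 26.0 times as high, and the fitted log2 fold change was 4.70 (SE 0.19). In whole animals, more RNA per cell and more cells that express a gene cannot be told apart.

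B0507.8, its neighbour to the right, had 74.4, 76.4 and 111 CPM in the mutants, against 3.42, 3.11 and 3.79 CPM in wild type. Its mean was 87.2 ± 20.5 CPM in the mutants and 3.44 ± 0.342 CPM in wild type (SD, n = 3 each). The fitted log2 fold change was 4.66 (SE 0.20). As for ddn-1, mutant replicate 3 was highest and wild-type replicate 2 was lowest. The third gene of the minus-strand group, B0507.7, had 4.76, 5.59 and 7.16 CPM in the mutants, against 0.438, 0.301 and 0.432 CPM in wild type. Mutant replicate 3 was again the highest and wild-type replicate 2 the lowest, at a far lower level, with a log2 fold change of 3.89 (SE 0.26).

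Of the plus-strand members, droe-8 had 9.31, 10.1 and 11.5 CPM in the mutants, against 0.613, 0.576 and 0.814 CPM in wild type. The groups did not overlap, and the log2 fold change was 3.94 (SE 0.20). ZC196.2 was the lowest of the 6, with 2.81, 2.86 and 2.64 CPM in the mutants, against 0.219, 0.226 and 0.0509 CPM in wild type. Its wild-type level rests on 10, 9 and 2 counts, so the log2 fold change of 4.03 has the largest error among the members (SE 0.42).

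B0507.6 had 11.9, 11.3 and 12.3 CPM in the mutants, against 2.41, 1.20 and 1.32 CPM in wild type. It had the smallest change of the 6 (log2 fold change 2.84, SE 0.29), and wild-type replicate 1 stood above the other wild-type libraries. Mutant and wild-type libraries did not overlap for any of the 6 members. Such a full separation with the mutants higher was seen for 23.4% of all genes tested, and 9.96% of them passed the thresholds as higher (p below 0.01 and Benjamini-Hochberg adjusted p below 0.1 in edgeR's quasi-likelihood test). Nothing is read from these shares for the members, which were chosen on this contrast.

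**Figure D1:**
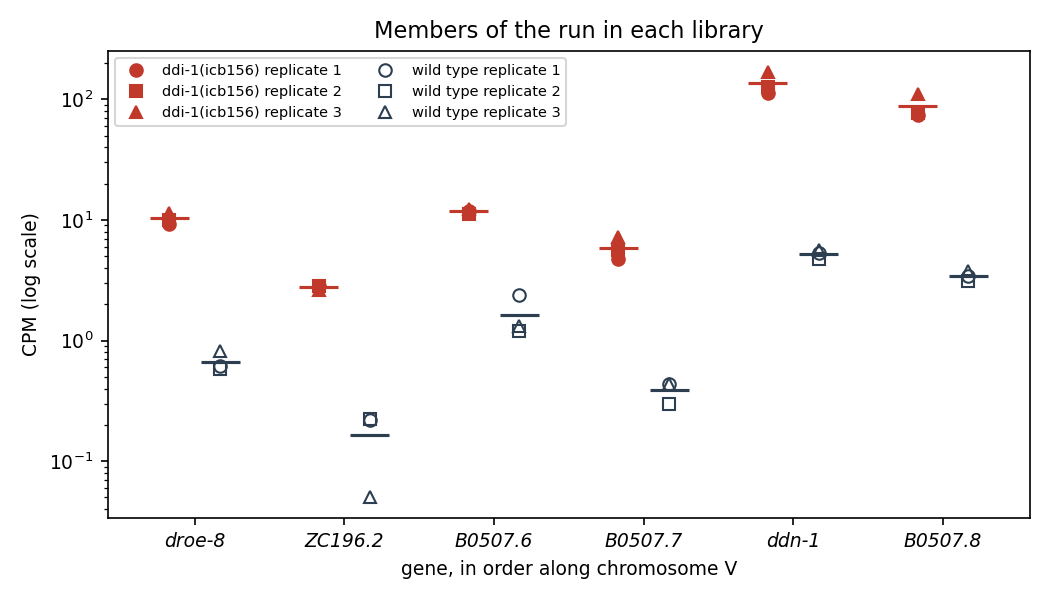
CPM (log axis) of the 6 members in each library, in their order along chromosome V, with ddi-1(icb156) libraries filled and wild-type libraries open; horizontal lines are means of 3 libraries. Every mutant library lies above every wild-type library for each member, with the highest values for ddn-1 (113 to 168 CPM in the mutants) and B0507.8 (74.4 to 111 CPM).

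Levels of different genes were compared per length, as TPM, which also divides by the effective length of the transcript. In the mutants the order was ddn-1 (96.2 ± 19.0 TPM), B0507.8 (66.1 ± 14.0), droe-8 (7.26 ± 1.02), B0507.7 (6.19 ± 0.790), B0507.6 (5.26 ± 0.0665) and ZC196.2 (2.68 ± 0.216; SD, n = 3 each). The TPM ranges of ddn-1 and B0507.8 overlapped over the mutant libraries, but within each library ddn-1 was the higher, by 1.41, 1.55 and 1.41 times. Those of droe-8 and B0507.7 overlapped too. B0507.7 was above B0507.6 in every mutant library, at 5.34, 6.33 and 6.90 TPM against 5.18, 5.27 and 5.31 TPM. ZC196.2 stood below the other 5.

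In wild type, ddn-1 (3.61 ± 0.277 TPM) and B0507.8 (2.54 ± 0.219 TPM) were again the highest. They were followed there by B0507.6 at 0.711 ± 0.282 TPM, B0507.7 at 0.456 ± 0.123 TPM, droe-8 at 0.422 ± 0.0616 TPM and ZC196.2 at 0.156 ± 0.0943 TPM (SD, n = 3 each). The wild-type ranges of B0507.7 and droe-8 overlapped. The order therefore differed between the groups in the place of B0507.6, which was the fifth of the 6 in the mutants and the third in wild type. By library, B0507.6 had 1.04, 0.531 and 0.566 TPM in wild type, against 0.529, 0.314 and 0.525 TPM for B0507.7. Those of B0507.7 rest on only 20, 12 and 17 counts.

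The 6 genes together summed to 152, 178 and 221 TPM in the mutants, against 8.28, 7.14 and 8.28 TPM in wild type. ddn-1 and B0507.8 made up 87.3, 87.7 and 89.6% of that sum in the mutants, against 74.2, 79.4 and 80.3% in wild type. B0507.6 made up 3.40, 2.96 and 2.41% in the mutants, against 12.5, 7.44 and 6.84% in wild type. The ratio of ddn-1 to B0507.8 varied little, at 1.41 to 1.55 in the mutants and 1.39 to 1.46 in wild type. The gap between the strongest and weakest member was 29.3 to 46.7 times in the mutants and 15.3 to 81.5 times in wild type, where the upper value comes from the 2 counts of ZC196.2 in replicate 3.

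Mutant replicate 3 was the highest mutant library in CPM for 5 of the 6 members, the exception being ZC196.2. Mutant replicate 1 was the lowest for 4. How often these orders occur over all genes was not counted, so they are not read as a trait of the run. The spread was unequal, with coefficients of variation in the mutants of 21.2% for ddn-1 and 23.5% for B0507.8, beside 4.23% for B0507.6 and 4.14% for ZC196.2.

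Wild-type replicate 2 stood apart from the other wild-type libraries on the first principal component of all genes, at −17.2 against −77.4 and −74.9, with the mutants at 50.6 to 62.8. For the members it was the lowest wild-type library in 5 of the 6 cases, and the highest for ZC196.2. The share of all genes with wild-type replicate 2 lowest was not counted either. Without it the median log2 fold change of the 6 was 4.06, against 3.98 with it.

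Of the members, 3 have a pair of transcript models each, and the split between them varied between libraries. For droe-8, the shorter model (ZC196.6b, 1251 bases) took 27.6, 40.7 and 53.8% of the estimated counts in the mutants, against 0, 46.7 and 0% in wild type, where 28, 23 and 32 counts were available. For B0507.7, the longer model (1956 bases) took 14.0, 23.9 and 35.1% in the mutants, against 0, 31.0 and 0% in wild type to the nearest percent. This model has 874 bases in the annotation used for positions, where the whole locus of B0507.7 is shorter than 1956 bases. Whether the counts and TPM of B0507.7 include reads of a neighbouring gene was not tested. For B0507.6, the longer model (2181 bases) took 88.8, 100 and 96.0% in the mutants, against 72.0, 100 and 100% in wild type. The groups overlapped in every case, so a difference in isoform use between the groups was not detectable at this depth.

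The genes that lie among the members did not move as one. ZC196.4 (WBGene00022548), between droe-8 and ZC196.2, had 10.6, 10.04 and 9.29 CPM in the mutants, against 1.55, 0.902 and 1.09 CPM in wild type. It was higher in the mutants (log2 fold change 3.07, SE 0.23, edgeR adjusted p = 9.43e-04). This change is above that of the member B0507.6 (2.84), so the list of members is not a cut by size of change: B0507.6 is the smallest value inside it and ZC196.4 the largest outside it within the run.

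ZC196.5, next to droe-8, had 13.3, 14.2 and 11.8 CPM in the mutants, against 9.24, 11.4 and 8.77 CPM in wild type. It was already well expressed in wild type and missed the thresholds, with a log2 fold change of 0.42 (SE 0.15, edgeR adjusted p = 0.0749). ZC196.3, between ZC196.4 and ZC196.2, missed them as well at a log2 fold change of 1.24 (SE 0.49, edgeR adjusted p = 0.103) and 0.804, 1.004 and 0.607 CPM in the mutants, against 0.219, 0.200 and 0.610 CPM in wild type. Its groups touched, with wild-type replicate 3 just above mutant replicate 3. Without wild-type replicate 3, ZC196.3 passed as higher (log2 fold change 1.93), and without wild-type replicate 2, ZC196.5 did (0.54).

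B0507.5 and B0507.4, which lie side by side between B0507.6 and B0507.7, had too few counts for the test. B0507.5 had 4, 6 and 6 counts in the mutants, against 1, 1 and 0 in wild type. B0507.4 had 5, 9 and 5 counts in the mutants, against 4, 0 and 2 in wild type. When no minimum count was set, B0507.5 passed as higher (log2 fold change 3.05, edgeR adjusted p = 0.0389) and B0507.4 did not (1.88, adjusted p = 0.142). Thus 1 of the 3 tested genes among the members passed as higher, against 9.96% of all genes tested, and none passed as lower, against 13.4% of all genes tested. Nothing is read from these shares, as these genes are those left after the members were taken on this contrast.

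**Figure D2:**
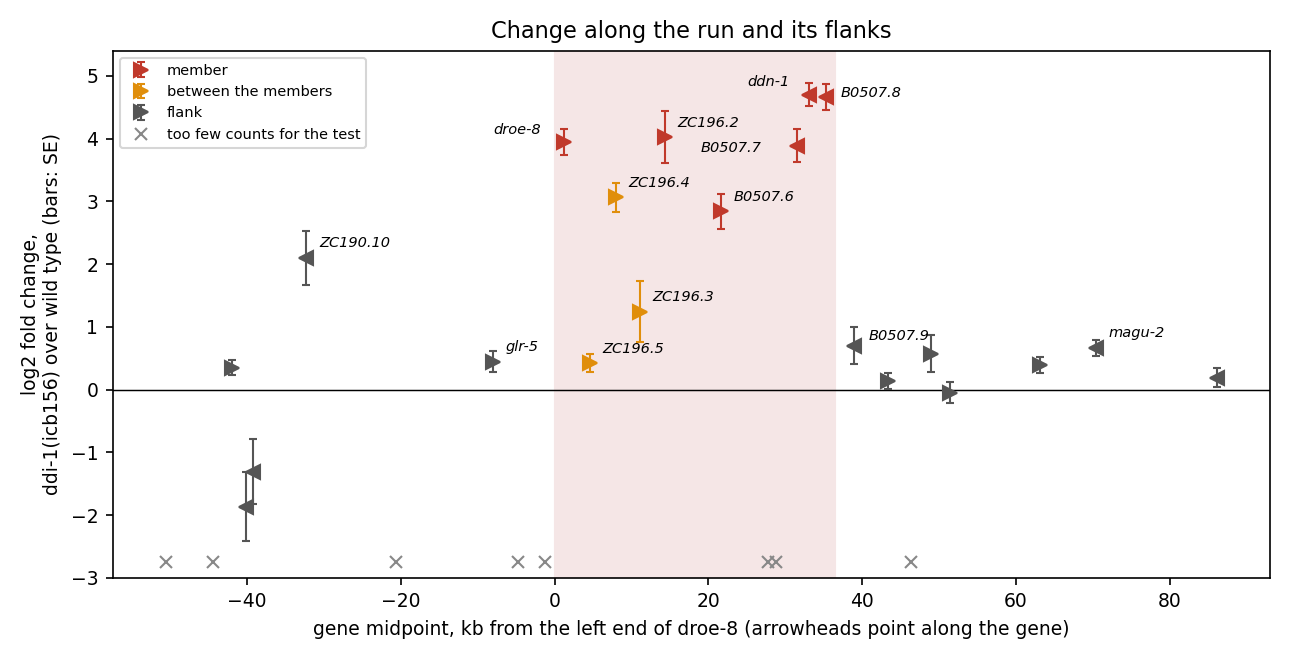
Log2 fold change, ddi-1(icb156) over wild type, with its standard error (bars) for each tested gene, against the distance of its midpoint from the left end of droe-8 in kb; the shaded span is the run, arrowheads give the strand, and crosses at the foot mark genes with too few counts for the test. The 6 members lie between 2.84 and 4.70 with ZC196.4 (3.07) among them, and the nearest tested genes outside the run, glr-5 (0.45) and B0507.9 (0.70), lie below 1.

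The nearest tested genes on either side of the run did not pass the thresholds. To the right of B0507.8, after a gap of 1991 bases, B0507.9 had 0.971, 0.592 and 0.820 CPM in the mutants, against 0.569, 0.451 and 0.432 CPM in wild type. Its log2 fold change of 0.70 (SE 0.29) did not pass the thresholds (edgeR adjusted p = 0.121). B0507.3, the next gene, had 6.87, 8.19 and 7.98 CPM in the mutants, against 6.76, 7.44 and 6.79 CPM in wild type, a log2 fold change of 0.13 (SE 0.13, adjusted p = 0.485). The groups overlapped. srx-115, of a chemoreceptor class, followed with too few counts for the test.

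To the left of droe-8, ZC196.9 overlaps its 5′ end on the opposite strand. It had 5, 12 and 5 counts in the mutants, against 2, 0 and 0 in wild type, too few for the test. In the Ensembl annotation the 2 genes share 418 exon bases, which are 25.1% of the exon bases of droe-8. The longest ZC196.9 model was counted at 1275 bases, against 2971 in that annotation. How far the models counted overlap is therefore not known. The sources do not state whether counting used strand, so reads of the pair cannot be told apart where they overlap, and the counts of ZC196.9 are uncertain. With no minimum count ZC196.9 passed as higher (log2 fold change 3.49, edgeR adjusted p = 0.0442). ZC196.8 beyond it had 0, 0 and 1 counts in the mutants, against 1, 3 and 3 in wild type.

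glr-5, an ionotropic glutamate receptor gene and the nearest tested gene on the left, had 8.47, 10.6 and 9.62 CPM in the mutants, against 6.66, 8.27 and 6.18 CPM in wild type. Its log2 fold change was 0.45 (SE 0.16, edgeR adjusted p = 0.0879), and it did not pass. Every mutant library was nevertheless above every wild-type library for glr-5, and likewise for B0507.9 and ZC196.5. That separation was seen for 23.4% of all genes tested. Within 50 kb of the run there are 18 genes with a row in the files, 10 on the left and 8 on the right, of which 12 could be tested. Of these 12, 2 passed as higher, against 9.96% of all genes, and none as lower, against 13.4%. Their median log2 fold change was 0.37, against 0.01 over all genes tested and 3.98 over the members. Full separation with the mutants higher was seen for 4 of the 10 genes on the left and 3 of the 8 on the right. The 4 on the left include ZC196.9, which was not tested, and the share over all genes tested was 23.4%.

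The flanking genes past the thresholds lie at a distance from the run, with genes that did not pass or were not tested in between. ZC190.10 on the left, at 8692198 to 8696318, had 17, 17 and 29 counts in the mutants, against 9, 4 and 5 in wild type (log2 fold change 2.10, SE 0.43, edgeR adjusted p = 0.0223). magu-2 on the right, a gene for a membrane-associated guanylate kinase at 8792760 to 8801028, had 23.9, 26.3 and 24.4 CPM in the mutants, against 13.4, 18.2 and 15.4 CPM in wild type (log2 fold change 0.67, SE 0.13, adjusted p = 0.0177). Both kept these calls when any single library was left out. Without wild-type replicate 2, however, 6 of the 12 flanking genes passed as higher and 2 as lower. In that fit 3085 of all 15643 genes tested were higher and 3474 lower.

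Published lists from other samples hold these genes at a high rate. All 6 members are on the ORR list, on the list of genes induced by bortezomib and on the list of genes higher in skn-1a(mg570) mutants, and 5 are on the IPR list, ZC196.2 being the exception. Among all genes tested here, 1.02% are on the ORR list, 3.15% on the bortezomib list, 0.532% on the skn-1a list and 0.435% on the IPR list. All 4 lists hold 5 of the 6 members, as they do 0.169% of the genes tested. Since the members were chosen with such lists known, this is a description.

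Genes among the members were on fewer lists. ZC196.4 is on the ORR and bortezomib lists, and ZC196.3 on the IPR, bortezomib and skn-1a lists. ZC196.5 is on the ORR list alone, and B0507.5 and B0507.4 on the bortezomib list alone. Of the 18 flanking genes, none is on the ORR or skn-1a list, 1 is on the IPR list and 3 (ZC196.9, B0507.9 and magu-2) are on the bortezomib list. B0507.9, which did not pass here, is on both the IPR and the bortezomib list.

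**Figure D3:**
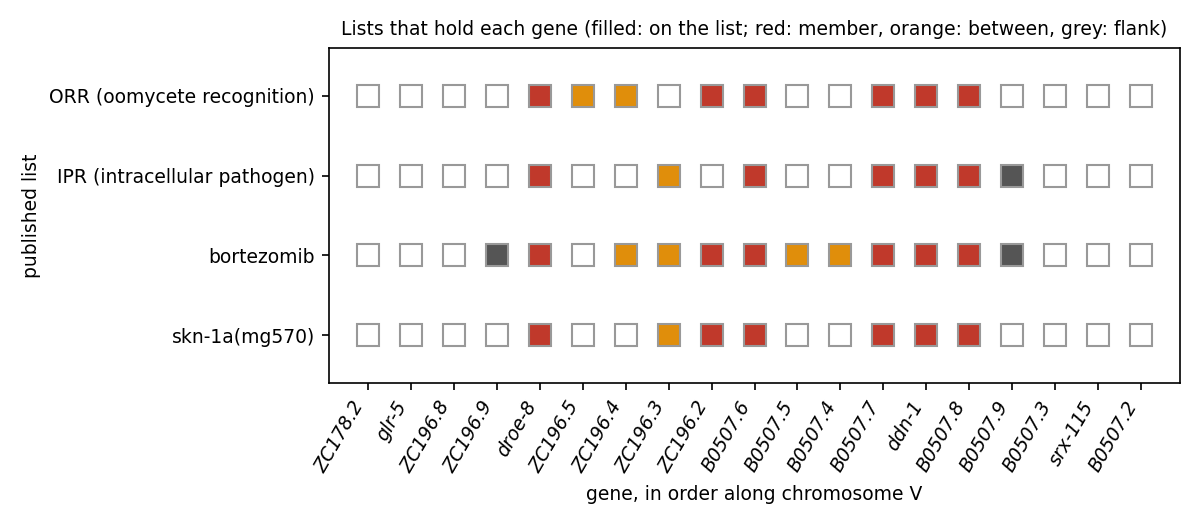
Membership of the genes of the run and of the 4 genes on each side in 4 published lists (rows), with genes in order along chromosome V (columns); a filled square means that the list holds the gene, and colours mark members (red), genes among them (orange) and flanking genes (grey). The members other than ZC196.2 are on all 4 lists, and among the genes drawn the filled squares end at ZC196.9 on the left and B0507.9 on the right.

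The members were set beside the other genes that the ORR, IPR and bortezomib lists share. Outside the run, 34 such genes have a row in the files and 32 were tested. Of these, 26 passed as higher, against 9.96% of all genes tested, 6 did not pass and none passed as lower. Their median log2 fold change was 3.02, against 3.98 for the members of the run. The change of 17 of the 32 was above that of B0507.6, the smallest among the members, and that of 1 was above that of ddn-1, the largest.

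The largest changes among these 32 were those of Y6E2A.7 (5.02, SE 0.45), pals-32 (4.70, SE 0.20) and F07E5.9 (4.61, SE 0.19). Y6E2A.7 had 2.98, 3.45 and 4.07 CPM in the mutants, against 0.0438, 0.200 and 0.0763 CPM in wild type. The smallest were those of math-14 (0.40, SE 0.18), F57G4.11 (0.39, SE 0.30) and pals-4 (−0.01, SE 0.37), none of which passed. pals genes form a large family of C. elegans with many members in the IPR, and 18 of the 34 shared genes belong to it.

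**Figure D4:**
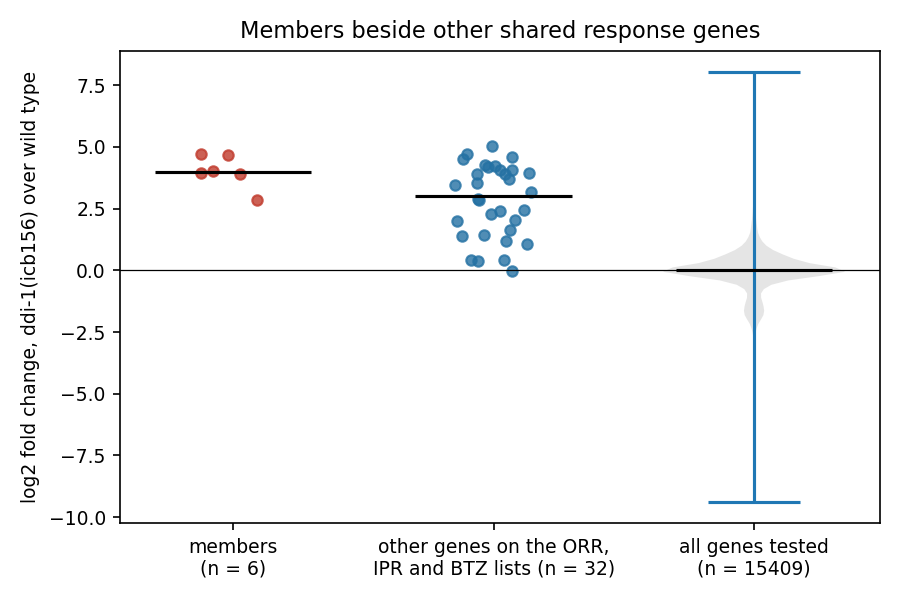
Log2 fold change, ddi-1(icb156) over wild type, of the 6 members (left), of the 32 other tested genes on the ORR, IPR and bortezomib lists (middle, 1 point per gene) and of all 15409 genes tested (right, distribution and range); black lines are medians. The medians are 3.98 for the members, 3.02 for the other shared genes and 0.01 for all genes.

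Genes elsewhere in the genome with the most similar profile were found by the Euclidean distance between their centred log2 CPM values over the 6 libraries and the mean of the members. Nearest were Y2H9A.6 on chromosome V (distance 0.351), fbxa-182, an F-box gene on chromosome II (0.390), pals-2 (0.395) and pals-6 (0.400) on chromosome I, and lips-6, a lipase-related gene on chromosome IV (0.441). Their log2 fold changes were 4.26, 4.21, 4.18, 4.05 and 3.84. Y2H9A.6, pals-2 and pals-6 are on all 4 lists and fbxa-182 on 3, while lips-6 is on none. The members' own distances to their mean were 0.431 for B0507.7 to 1.40 for B0507.6, and 69 of 15388 other genes were nearer than B0507.6, against a median distance of 4.83.

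lips-6 had 83.2, 70.0 and 80.5 CPM in the mutants, against 5.21, 5.56 and 5.49 CPM in wild type. Per length, lips-6 averaged 65.9 ± 3.17 TPM in the mutants and 4.49 ± 0.2499 TPM in wild type (SD, n = 3 each), beside 66.1 ± 14.0 TPM in the mutants and 2.54 ± 0.219 TPM in wild type for B0507.8.

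The mutated gene, ddi-1, had 35.0, 35.3 and 35.5 CPM in the mutants, against 48.5, 50.3 and 48.6 CPM in wild type (log2 fold change −0.48, SE 0.05, edgeR adjusted p = 0.00308). As the allele is non-synonymous, its RNA level is no check on the labels. Markers of epidermis, intestine, neurons, body wall muscle, pharynx and germline were present in every library. All 6 yolk protein genes were lower in the mutants, with summed levels of 302 to 536 CPM in the mutants and 2754 to 5709 CPM in wild type, and 2 of 5 germline markers were lower (summed 1180 to 1445 CPM in the mutants and 1502 to 2017 CPM in wild type). Of the epidermis markers, 1 of 6 was higher and none lower, with summed levels of 5411 to 6120 CPM in the mutants and 4555 to 6493 CPM in wild type, and of the 6 intestine markers likewise 1 was higher (summed 2400 to 2707 CPM in the mutants and 2148 to 2678 CPM in wild type). For these lists the shares to read against are 9.96% higher and 13.4% lower over all genes tested. Among the neuron markers 2 of 5 were higher, among the pharynx markers 1 of 4 was higher, and among the body wall muscle markers 1 of 4 was lower. Cuticle collagen genes outside these lists differed strongly in both directions, as in col-19 (log2 fold change −5.78) and col-36 (4.71). Whether the groups differed in developmental stage was not tested. The part of all these differences in the levels of the run was not tested either.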

How the data were processed

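Kallisto was run by the authors against the WS283 transcriptome of WormBase, and the deposited estimated counts per transcript (not whole numbers), with lengths and effective lengths, were used here; their versions were not stated. The authors' own comparison used Sleuth with a Wald test. The 37058 transcripts were summed to 19999 genes by identifier (30413) or sequence name (6633), and 12 were left unmatched. Positions and symbols came from Ensembl release 115 (WBcel235), in which 52.8% of the transcripts matched by identifier have the same length as in the files. TPM was computed from estimated counts and effective lengths. Sums were rounded and fitted over all genes with edgeR 4.0.16 in R 4.3.3 (TMM factors 0.9692 to 1.072, filterByExpr at default settings, robust quasi-likelihood test, two-sided), with 15409 genes tested, p below 0.01 and Benjamini-Hochberg adjusted p below 0.1. CPM uses TMM-scaled library sizes, and SE is the log2 fold change divided by the root of F. Of genes tested, 1535 were higher and 2071 lower.

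Depth was 28962104 to 47142002 counts per library, and counting error weighs most on genes with few counts. The script was tested on simulated counts.

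Members and lists were chosen with earlier results of these data known. Named genes were the members, all genes among them, the 3 nearest genes on each side, flanking genes past the thresholds, the 5 nearest profiles, and the 3 largest and 3 smallest changes among genes shared by the ORR, IPR and BTZ lists. The 4 lists come from earlier work, as given in the study's supplementary table.

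Deviations of same-numbered libraries had correlations of 0.114, 0.309 and 0.185, each over 0.1. Libraries of different number were not compared, so these values do not establish a pairing. The replicate number of the labels was fitted as a block in an alternative, and the main values come from the fit without it. Others were DESeq2 1.42.0 (size factors and Wald test), limma 3.58.1 on log2(TPM + 1) and log2(TPM + 0.5), library size alone, no or a stricter filter (50 counts in 3 libraries), flanks of 25 and 100 kb, and each library left out.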

Additional observations from a re-analysis of the deposited data

How the results depend on the processing

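The median log2 fold change of the members was 3.97 to 4.07 under the other count models and 3.96 to 4.14 with 1 library left out; on log2(TPM + 1) and log2(TPM + 0.5), which shrink low values by construction, it was 2.42 and 2.94. None of the 84 values of single members changed sign. Among the genes between the members, 2 passed as higher with no filter, and 1 to 2 with a library left out. Among flanking genes, 1 passed as higher with the stricter filter, which removes ZC190.10, and 2 to 6 with a library left out; 1 passed as lower by the DESeq2 Wald test and 1 with the replicate block (ZC190.7, log2 fold change −1.77, edgeR adjusted p = 0.0206), and 0 to 2 with a library left out. The block changed no other call in the run or its flanks. Flanks of 25 kb held 0 higher genes among 6 tested, and 2 at an unadjusted p below 0.05 in the edgeR test. Flanks of 100 kb held 4 higher and 3 lower among 32 tested, against 9.96% and 13.4% of all genes tested. Of the shared genes, 23 to 25 were higher with a library left out. Over all genes, 931 to 3085 were higher and 771 to 3474 lower with a library left out, the upper ends without wild-type replicate 2; library size alone gave 1917 higher and 1688 lower, against 1535 and 2071 with TMM. The causes were not tested. A comparison with protein relatives of the members was not run, as protein sequences were not used here. Depth limits ZC196.2 in wild type and the genes under about 20 counts.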

Other observations

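Chosen after their values were seen, the genes on at least 1 of the 4 lists (746 of 19988 placed genes, 3.73%) were followed along the chromosomes. From ZC196.9 to B0507.9, 13 consecutive genes on 42669 bases are each on a list, with 34 entries in all. The run of pals-2 to pals-15 on chromosome I also holds 13 genes, with 39 entries, and no other run reached 10. Of the 13 genes on chromosome V, 6 are the members, which were chosen on this contrast. Of the other genes in it, 4 were tested here (ZC196.5, ZC196.4, ZC196.3 and B0507.9), and 1 of these, ZC196.4, passed as higher, against 9.96% of all genes tested. These 4 genes remained after the members were taken on this contrast, so nothing is read from that share.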
